A study of Mus musculus with 38 samples.

Results

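Peg13, Trappc9, Kcnk9, Impact, Inpp5f and Rasgrf1 are 6 genes of 4 imprinted loci, and the histone marks over them were compared between IκBα-WT (WT) and IκBα-KO (KO) mouse embryonic stem cells (mESCs). They were 6 of the 55413 GENCODE M21 genes on chromosomes 1 to 19, X and Y. The members were chosen by name, with earlier values of these same libraries known, so every difference between WT and KO at them is given as a description with no test. A gene window was the gene body plus 5000 bp on either side. The study carried out chromatin immunoprecipitation and sequencing (ChIP-seq) for 5 histone marks, H3K4me3, H3K27me3, H3K9me3, H3K27ac and H3K4me1, with 3 WT and 3 KO libraries for each mark, which makes 30 ChIP libraries among 38 samples. All cells were of the ES-E14TG2a line, were cultured with serum and leukemia inhibitory factor and were taken at 0 h. The KO clones had been edited with Cas9 and a pair of guide RNAs against Nfkbia, the gene of IκBα, and the WT clones had received scrambled guides. The replicates of a genotype were separate clones, so that clone-to-clone variation is part of each spread given below, and the loss of IκBα cannot be told apart from a feature that all 3 edited clones acquired by other means.

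In mammals, an imprinted gene is transcribed from the maternal or the paternal copy only. The choice is set in the germ line by DNA methylation at a control region, and on the methylated copy that region also carries H3K9me3, a mark of silent chromatin, which the zinc-finger protein ZFP57 and its partner KAP1 bring there together with the methyltransferase SETDB1. The other copy is free of both and can carry H3K4me3, the mark of active promoters. ChIP-seq adds both copies together, so a control region in wild-type cells can show H3K9me3 and H3K4me3 at the same place, and the lists used here do not say which copy a read came from. H3K27me3 is the Polycomb mark, H3K27ac marks active promoters and enhancers, and H3K4me1 marks enhancers and promoter flanks.

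ZFP57 binds the hexamer TGCCGC when its CpG is methylated, so the stretch with most matches in the H3K9me3 sequence of each locus on chromosomes 15, 7 and 9 is shown here. The H3K9me3 core was the longest run of bases called in all 3 WT libraries. The core over Peg13 (13600 bp) held 7 matches over both strands, the core over the internal Inpp5f promoter (9800 bp) held 7 and the core upstream of Rasgrf1 (9400 bp) held 10. The 300 bases with most matches in each core are printed below on the plus strand of GRCm38, with TGCCGC or its complement GCGGCA in capitals. Peg13 is chr15:72809775-72810074, inside the only exon of Peg13. Inpp5f is chr7:128687968-128688267, in an intron of the long transcript and just upstream of the internal start. Rasgrf1 is chr9:89879596-89879895, between genes, where the sequence is repetitive.
Peg13: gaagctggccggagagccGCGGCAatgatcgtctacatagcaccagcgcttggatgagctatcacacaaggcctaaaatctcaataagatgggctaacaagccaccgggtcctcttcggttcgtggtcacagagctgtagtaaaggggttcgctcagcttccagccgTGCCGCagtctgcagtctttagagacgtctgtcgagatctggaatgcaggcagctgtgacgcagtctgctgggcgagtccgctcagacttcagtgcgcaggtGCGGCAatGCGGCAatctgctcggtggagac
Inpp5f: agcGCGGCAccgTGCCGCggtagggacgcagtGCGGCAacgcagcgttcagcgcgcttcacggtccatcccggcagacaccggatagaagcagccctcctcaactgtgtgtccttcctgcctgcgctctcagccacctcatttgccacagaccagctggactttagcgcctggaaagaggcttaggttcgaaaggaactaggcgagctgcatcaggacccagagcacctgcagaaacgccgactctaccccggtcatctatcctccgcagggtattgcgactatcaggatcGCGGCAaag
Rasgrf1: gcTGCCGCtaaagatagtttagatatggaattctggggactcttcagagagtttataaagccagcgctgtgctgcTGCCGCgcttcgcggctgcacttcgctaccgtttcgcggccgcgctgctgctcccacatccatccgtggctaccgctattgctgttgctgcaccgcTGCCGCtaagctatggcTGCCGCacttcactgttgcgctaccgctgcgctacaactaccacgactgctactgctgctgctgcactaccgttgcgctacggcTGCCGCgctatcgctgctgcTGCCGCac

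The stretches held 4, 4 and 6 matches, and 20, 25 and 28 CpG. Of the 35536 H3K9me3 cores in these libraries, 26.5% held TGCCGC at all, 0.113% held 4 or more matches within some 300 bp, and 0.0281% held 6 or more. Longer cores have more chances to hold such a stretch, and the median core was only 2600 bp long. The hexamer also holds a CpG, and CpG density was not matched. The middle 300 bp of the cores had a median of 2 CpG, and 0.0310% of them held 3 or more matches. The 300 bp at the summits of H3K4me3 regions had a median of 15 CpG, and 0.631% held 3 or more. By matches per kb of core, Peg13 stood at percentile 93.2 of all cores, Inpp5f at 95.9 and Rasgrf1 at 98.5. The Impact core, with 5 matches, stood at 99.5, and a core in a Trappc9 intron, with only 1, at 93.5. Since most cores held no match, a single match in a short core gives such a percentile. A match is a description of the letters and not a measured binding site. All 7 matches of the Peg13 core lay in the sequence that was still called for H3K9me3 in all 3 KO libraries. The other cores shown came from regions picked for having no H3K9me3 call in any KO library. None of their matches could lie under a KO call, so the difference is no result about the matches.

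All values below come from lists of called regions. The H3K9me3 lists held 35979 to 52748 calls over 172 to 207 Mb with 8548342 to 12105343 ChIP reads inside the calls, and the H3K4me3 lists held 21836 to 26806 peaks over 17.2 to 22.1 Mb and no counts. A value of 0 means that no call was made, not that the mark was absent. In the KO libraries the weakest calls, the 5th percentile of each H3K9me3 list, had 25.5 to 30.0 ChIP reads per kb, so weaker signal than this was seldom listed. Of 5 pluripotency genes, Pou5f1, Sox2, Nanog and Zfp42 had H3K4me3 within 1000 bp of the annotated start in all 6 libraries and Esrrb had it in none. Of 7 genes of other cell types, T and Thy1 had it in all 6, Pax6 in 5, Sox17 in 4, Gata6 in 3, Col1a1 in 2 and Gata4 in none. H3K27ac was called there in all 6 libraries at Pou5f1, Sox2, Nanog and Zfp42 and also at Pax6, Gata6, T and Thy1. Col1a1 had H3K27ac in 4 libraries, Gata4 in 1, and Esrrb and Sox17 in none.

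H3K9me3 was present in the windows of all 6 members in 3 of 3 WT libraries, and 5 of them kept at least one call in 3 of 3 KO libraries. Over all genes, 79.2% of windows with H3K9me3 in every WT library kept it in every KO library. The window of Impact was the exception, with a call in 1 of 3 KO libraries. The count of windows hides where the calls lay. At Peg13 the KO calls lay over the same place as the WT calls, at Inpp5f the large WT domain had no KO call and the kept call was a small one over the neighbouring gene with about as many input as ChIP reads, and at Kcnk9 and Rasgrf1 the kept calls were small calls along the gene body. Among merged H3K9me3 regions called in all 3 WT libraries, 4.44% were called in no KO library over the whole genome. Of these, 3 lay in the member windows (at Inpp5f, at Impact and in an intron of Trappc9). Another lay upstream of the Rasgrf1 window and was added after its values were seen. Regions called in all 6 libraries numbered 3 in the Trappc9 window (the Peg13 region among them), 2 at Rasgrf1, 1 at Kcnk9 and 1 at Inpp5f. A further Trappc9 region was called in 3 of 3 WT and 2 of 3 KO libraries. With so few regions, nothing is read from these counts. Covered bp of H3K9me3 were lower in all 3 KO than in all 3 WT libraries at 2 members, Peg13 and Inpp5f, and higher at 0. Over all windows with a call, 11.6% were lower and 3.86% higher by the same rule. ChIP reads per kb of window were lower at 3 of the 5 members called in all 6 libraries (Peg13, Trappc9 and Inpp5f) and higher at 0, beside 14.7% and 5.92% of all such windows. The Trappc9 window holds the Peg13 window, and without that part its reads overlapped.

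**Figure D1:**
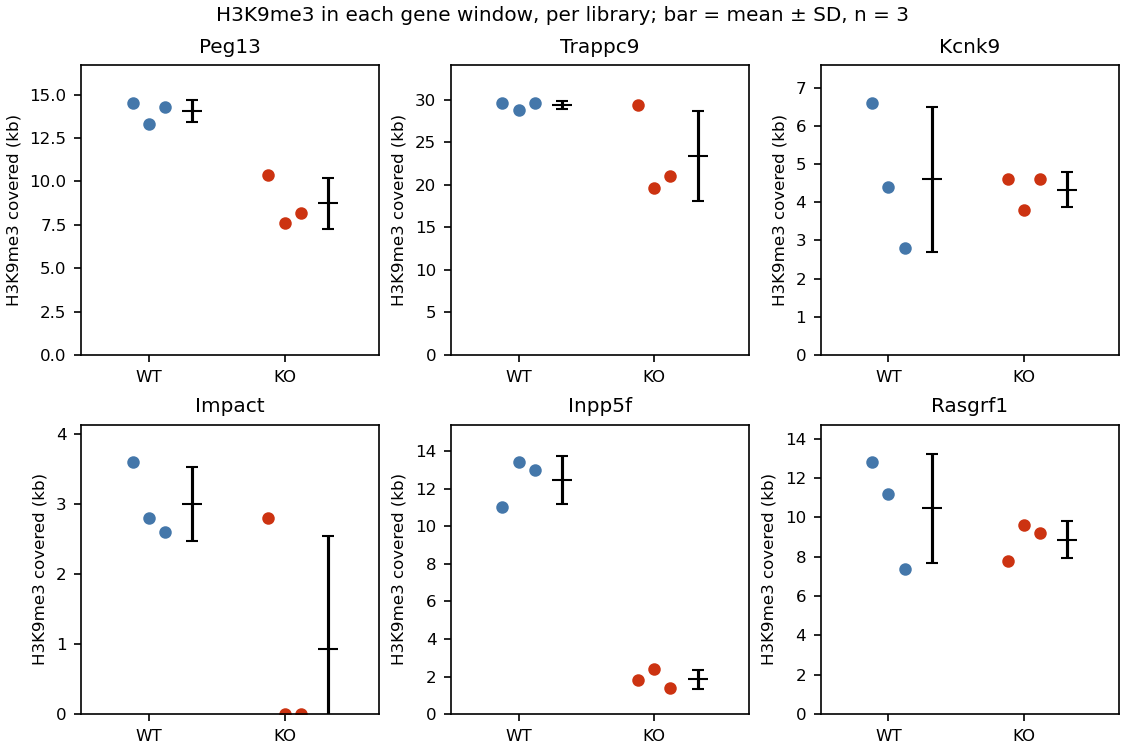
H3K9me3 covered sequence (kb, vertical axis, from 0 and with its own scale in each panel) in the window of each gene for 3 WT (blue) and 3 KO (red) libraries, with the mean ± SD beside the points. WT and KO points do not overlap at Peg13 (13324 to 14524 bp against 7600 to 10400 bp) and Inpp5f (11000 to 13400 bp against 1400 to 2400 bp), and they overlap in the other panels.

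Peg13 (ENSMUSG00000106847.1, chr15:72805600-72810324, minus strand) is a paternally expressed long non-coding RNA gene of one exon that lies in an intron of Trappc9 and whose promoter is the control region of the locus. The 14725-bp window was covered by H3K9me3 over 14524, 13324 and 14324 bp in WT replicates 1 to 3 and over 10400, 7600 and 8200 bp in KO replicates 1 to 3. The groups did not overlap, and every KO library still had a call across the Peg13 start. The means were 14057 ± 643 bp (SD, n = 3) in WT and 8733 ± 1474 bp (n = 3) in KO, which is 95.5% and 59.3% of the window.

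The H3K9me3 call at Peg13 also had fewer reads for its length in the KO. The single call held 1526, 1453 and 1352 ChIP reads in WT and 598, 414 and 447 in KO. Per kb of called sequence inside the window this was 95.9 ± 7.70 in WT and 55.5 ± 1.74 in KO (n = 3), a mean 0.58 times as high in KO, so that the KO calls were both narrower and less dense. Among all H3K9me3 regions called in 3 of 3 WT libraries, the Peg13 region stood at percentile 96.0 by its WT width. Bases called in all 3 WT libraries ran over chr15:72802001-72815600, and bases called in all 3 KO libraries over chr15:72806001-72813400, so the KO calls had drawn in on both sides of the Peg13 start.

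Over that shrunken H3K9me3 call, 4 other marks were called more widely in the KO. H3K4me3 covered 233, 0 and 320 bp in WT and 755, 783 and 1011 bp in KO. The H3K4me3 peaks in WT lay upstream of the Peg13 start and did not reach it, whereas a peak spanned the start in all 3 KO libraries. The fold enrichment of the spanning KO peaks over input was 5.53, 4.97 and 4.52, and that of the WT peaks 4.57 and 5.99. H3K27ac covered 1800, 1800 and 1400 bp in KO, with 104, 119 and 74 reads, and had no call in WT. H3K4me1 covered 7800, 9400 and 8600 bp in KO with 460, 500 and 493 reads, again with no call in WT. H3K27me3, the Polycomb mark, covered 6000, 6200 and 6200 bp in KO, with 139, 178 and 171 reads, and had no call in WT. These calls were weak, at 23.2, 28.7 and 27.6 reads per kb beside 21.8 to 22.2 for the 5th percentile of the KO lists, with 19.8, 18.2 and 19.4 input reads per kb. The H3K27ac calls spanned the Peg13 start in all 3 clones, whereas the H3K27me3 and H3K4me1 calls differed in position between clones. The H3K27me3 call of KO replicate 1 lay downstream of the start, KO replicate 2 had a call on either side of it, and KO replicate 3 had a call across it. For H3K4me1, KO replicate 1 had one call across the start, and KO replicates 2 and 3 had a call on either side of it.

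**Figure D2:**
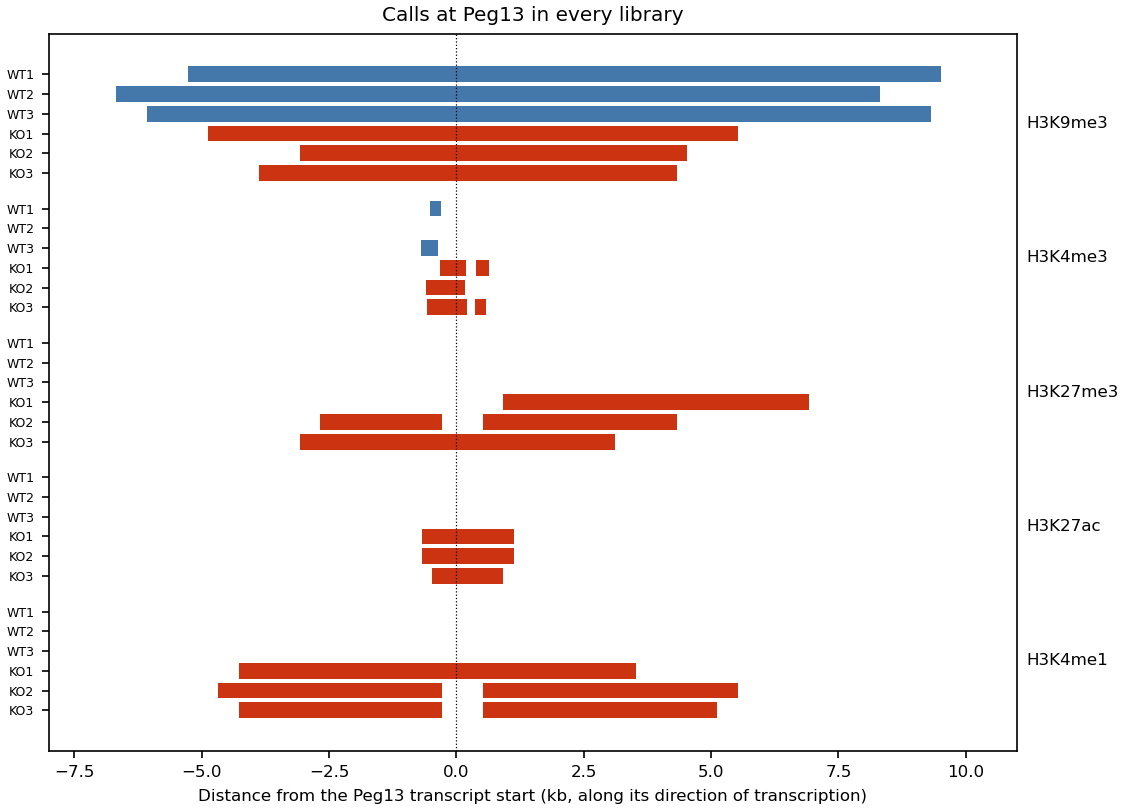
Calls of the 5 marks at Peg13 in all 30 ChIP libraries, against the distance from the Peg13 transcript start (kb, positive in the direction of transcription), each bar one call in a WT (blue) or KO (red) library. The H3K9me3 calls are shorter in KO, and H3K27me3, H3K27ac and H3K4me1 calls are present only in the KO rows.

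**Figure D3:**
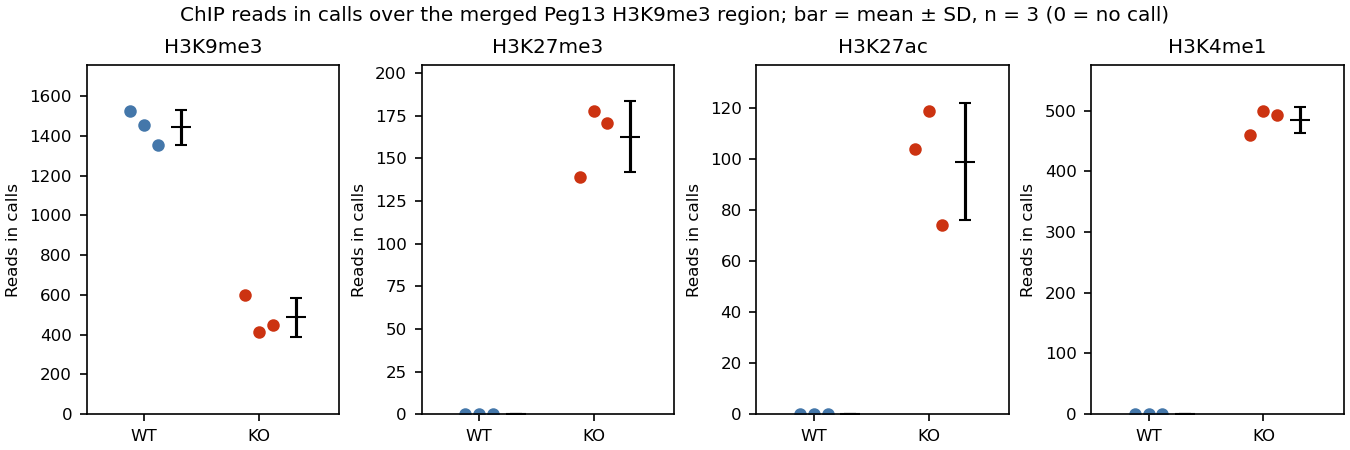
ChIP reads inside the calls over the merged Peg13 H3K9me3 region (vertical axes, from 0 and on separate scales) for the 4 marks whose lists give counts, with 3 WT (blue) and 3 KO (red) libraries and the mean ± SD. H3K9me3 reads fall from 1352 to 1526 in WT to 414 to 598 in KO, and a value of 0 for the other marks means no call.

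Trappc9 (ENSMUSG00000047921.16, chr15:72589620-73061204, minus strand) encodes a subunit of the TRAPP complexes, which work in vesicle traffic. Its 481585-bp window holds the whole Peg13 window, so it is described here also without that part. With it, H3K9me3 covered 29600, 28800 and 29600 bp in WT and 29400, 19600 and 21000 bp in KO, and the groups overlapped. Without it, 15076, 15476 and 15276 bp were covered in WT and 19000, 12000 and 12800 bp in KO, so the WT values lay inside the KO range. Likewise the reads per kb, which were lower in all KO libraries over the whole window (4.48, 4.01 and 3.72 against 2.74, 1.67 and 1.85), overlapped without Peg13 (1.42, 1.37 and 1.14 against 1.54, 0.838 and 0.949).

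One intronic H3K9me3 region of Trappc9, chr15:72774601-72777400 and 23.4 kb from the Peg13 region, was called in 3 of 3 WT libraries and in 0 of 3 KO libraries. Its WT calls had 87, 84 and 57 reads, or 36.3, 30.0 and 28.5 per kb, which is close to the weakest calls that the KO lists held. No other mark was called there in any library. H3K27me3 over Trappc9 covered 12400, 3200 and 13400 bp in WT and 37800, 52781 and 17381 bp in KO. Without the Peg13 window the KO values were 31800, 46581 and 11181 bp, and the lowest of them lay below the highest WT value. H3K4me3 in the Trappc9 window was the Peg13 promoter peak alone, and none of the 30 lists used here had a call within 1000 bp of the start of its longest annotated transcript. An H3K4me1 region called in all 6 libraries ended 1004 bp from that start, inside the gene, and held the start of a shorter Trappc9 transcript. H3K27ac and H3K4me1 were spread along the gene and overlapped between the genotypes, at 76600 to 104200 bp in WT and 71200 to 94600 bp in KO for H3K27ac, and at 85200 to 104000 bp and 84600 to 94400 bp for H3K4me1. Without the Peg13 window, H3K4me1 covered 85200 to 104000 bp in WT and 76000 to 85000 bp in KO, which did not overlap. An H3K27ac region inside the gene, chr15:72726801-72735000, was called in 3 of 3 WT and 0 of 3 KO libraries, as was one across its 3′ end, chr15:72586401-72590400, which lay mostly in the flank and over the start of the antisense gene Gm49460. Inside the gene an H3K27me3 region at chr15:72643401-72647800 was called in 0 of 3 WT and 3 of 3 KO libraries.

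Kcnk9 (ENSMUSG00000036760.7, chr15:72501089-72546340, minus strand) encodes the potassium channel TASK3 and is expressed from the maternal copy in brain, where it is linked to the Peg13 locus. It kept its H3K9me3, which covered 6600, 4400 and 2800 bp in WT and 4600, 3800 and 4600 bp in KO, in small calls within the gene body. Per kb of called sequence these had 33.6, 29.8 and 37.9 reads in WT and 42.2, 29.2 and 30.0 in KO. The values of KO replicates 2 and 3 are close to the 25.5 to 30.0 of the weakest KO calls. Kcnk9 was instead a Polycomb-marked gene, with H3K27me3 over 26140, 30340 and 37340 bp in WT and 35140, 35740 and 33740 bp in KO, about 56.6% and 63.1% of the 55252-bp window. The covered bp overlapped between the genotypes, whereas the H3K27me3 reads per kb were higher in every KO library (26.5, 28.3 and 30.1 against 32.4, 35.1 and 30.5), the nearest values being 30.1 and 30.5. Scaled by the total reads in each list, they overlapped. H3K4me1 covered 7800, 11340 and 11140 bp in WT and 5200, 5400 and 7600 bp in KO and did not overlap. Within 1000 bp of the Kcnk9 start, H3K4me3 covered 378, 235 and 385 bp in WT and had no call in KO. Over the whole window the H3K4me3 values overlapped, at 729, 235 and 1001 bp in WT and 0, 230 and 273 bp in KO. H3K27ac was called in 2 of 3 libraries of each genotype.

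Inpp5f (ENSMUSG00000042105.18, chr7:128611328-128696425, plus strand) encodes a phosphoinositide phosphatase. Its long transcript starts at the gene's 5′ end, and a paternally expressed short transcript starts from an internal promoter, here the annotated start at position 128688489, which is 77.1 kb downstream. H3K9me3 covered 11000, 13400 and 13000 bp of the window in WT and 1800, 2400 and 1400 bp in KO. The groups did not overlap, and the means were 12467 ± 1286 bp and 1867 ± 503 bp (SD, n = 3), 0.15 times as much in KO. The WT calls lay mostly in one domain, chr7:128682201-128695200, which spanned the internal start with 760, 723 and 669 reads in WT and had no call in the KO libraries. Its WT calls had 55.6 to 71.7 reads per kb, above the weakest calls of the KO lists. The calls that the KO kept in the window lay over Mcmbp, the neighbouring gene, at chr7:128697601-128700800, with 110, 135 and 93 reads in KO and 80, 79 and 125 in WT. The KO calls had 61.1, 56.3 and 66.4 ChIP reads per kb and 57.8, 50.4 and 66.4 input reads per kb, as listed and not scaled for depth.

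The 2 promoters of Inpp5f went different ways in H3K4me3. At the internal promoter the peak was 416, 432 and 482 bp wide in WT and 799, 727 and 953 bp wide in KO, the WT peaks ended just before the transcript start, and the KO peaks ran past it. At the 5′ promoter of the long transcript the peak was 821, 927 and 848 bp wide in WT and 709, 804 and 707 bp in KO. Fold enrichment at the internal peak was 8.00, 8.08 and 5.88 in WT and 7.76, 8.98 and 9.92 in KO, so the groups overlapped there, whereas at the 5′ peak it was 16.4, 15.0 and 15.9 in WT and 9.89, 13.3 and 9.95 in KO, with every KO value lower. H3K27me3 was called across the internal start in 2 of 3 KO libraries, over 3800 and 3600 bp of the former H3K9me3 domain, and in 0 of 3 WT libraries. H3K4me1 in that domain covered 6600, 8200 and 5600 bp in WT and 6800, 8800 and 6800 bp in KO and overlapped. Elsewhere in the gene an H3K4me1 region in an intron, chr7:128651601-128658200, was called in 0 of 3 WT and 3 of 3 KO libraries, over 5400, 5600 and 2400 bp. Over the whole window, H3K4me1 covered 33200, 42225 and 33600 bp in WT and 46025, 48600 and 44000 bp in KO. H3K27ac covered 22400 to 29825 bp in WT and 21225 to 26825 bp in KO and overlapped, as did its reads per kb of window. Scaled by the total reads in each list, those reads were lower in every KO library (15.6 ± 1.74 against 10.8 ± 1.18). Reads per kb of called H3K27ac sequence were lower too (51.4 ± 0.82 against 46.5 ± 2.47, SD, n = 3).

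Impact (ENSMUSG00000024423.6, chr18:12955852-12992950, plus strand) encodes a regulator of the kinase GCN2 and is paternally expressed. The main transcript starts 16.1 kb inside the annotated gene, and all H3K4me3 of the window lay downstream of that start. H3K9me3 was called over the same stretch, chr18:12972001-12975600, with 3600, 2800 and 2600 bp in WT and no call in KO. KO replicate 1 had another H3K9me3 call, of 2800 bp, toward the 3′ end of the gene at chr18:12988201-12991000. The WT calls at the promoter were thin, with 125, 94 and 81 reads or 34.7, 33.6 and 31.2 per kb, and lay just above the 25.5 to 30.0 reads per kb of the weakest KO calls. The WT core there held 5 matches to TGCCGC and 55.0 CpG per kb, beside a median of 8.67 CpG per kb over all cores.

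H3K4me3, H3K27ac and H3K4me1 at Impact were all broader in the KO. H3K4me3 covered 1032, 1566 and 1028 bp in WT and 2074, 2340 and 2261 bp in KO. What were separate WT peaks with a gap between them were one peak of 1826, 1754 and 1697 bp in KO, and a further peak downstream was called in 1 of 3 WT and 3 of 3 KO libraries. H3K27ac covered 10400, 16400 and 15200 bp in WT and 22800, 29000 and 27600 bp in KO, with a mean of 15.5 ± 3.61 reads per kb of window in WT and 33.3 ± 2.80 in KO (SD, n = 3), 2.15 times as many. H3K4me1 covered 11600, 10200 and 4600 bp in WT and 22800, 30000 and 26800 bp in KO, with 8.87 ± 3.11 and 30.6 ± 3.40 reads per kb (SD, n = 3), 3.45 times as many in KO. Downstream of the promoter the KO calls of both marks covered more of the gene body. For H3K27ac, WT libraries had separate calls there too, and WT replicate 2 had one that reached about as far as the KO calls. Reads per kb of called sequence overlapped between the genotypes for both marks, and the covered bp did not. H3K27me3 had no call in any of the 6 libraries. The gain was not confined to Impact. At the neighbouring gene Osbpl1a, H3K4me3 covered 1808, 2531 and 2141 bp in WT and 3165, 3354 and 4846 bp in KO. H3K27ac there covered 70800, 73487 and 80887 bp in WT and 104887, 102400 and 121887 bp in KO, and H3K4me1 overlapped. At Hrh4 and Cabyr, the other listed neighbours of Impact, none of these marks separated the genotypes.

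Rasgrf1 (ENSMUSG00000032356.12, chr9:89909908-90026977, plus strand) encodes a guanine nucleotide exchange factor for Ras and is paternally expressed, under a methylated control region upstream of the gene. Inside its window H3K9me3 was kept, over 12800, 11200 and 7400 bp in WT and 7800, 9600 and 9200 bp in KO, in small calls of the gene body, of which regions at chr9:89923801-89929000 and chr9:89933601-89939600 were called in all 6 libraries. Per kb of called sequence the window had 37.5, 35.4 and 36.8 reads in WT and 38.5, 30.7 and 29.0 in KO. The values of KO replicates 2 and 3 are again close to those of the weakest KO calls. The control region lies outside the window of 5000 bp and came into view with a flank of 50000 bp. There, 21.7 to 36.3 kb upstream of the gene, H3K9me3 covered 14600, 13600 and 9400 bp of chr9:89873601-89888200 in WT with 729, 625 and 509 reads, and had no call in the KO libraries. The calls had 25.3 to 54.1 reads per kb. The repeats printed above lie in this region.

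The upstream region of Rasgrf1, unlike those at Inpp5f, at Impact and in the Trappc9 intron, was covered by H3K27me3 in WT. It had no H3K4me3 or H3K27ac call in any library, and H3K27me3 covered 13200, 13200 and 13600 bp in WT and 13200, 14600 and 13800 bp in KO. H3K27me3 reads in it were 619, 640 and 627 in WT and 833, 899 and 840 in KO, with every KO value higher. H3K4me1 was called in 0 of 3 WT and 3 of 3 KO libraries, over 2600, 2000 and 2000 bp, at positions that differed between clones, since no H3K4me1 region there was called in all 3. Within the gene window, H3K27me3 covered 52293, 68493 and 68293 bp in WT and 80493, 70093 and 74293 bp in KO, with 20.8 ± 2.27 and 25.0 ± 1.11 reads per kb (SD, n = 3). H3K4me3 of the window, at and just upstream of the start, overlapped between the genotypes (1146, 918 and 780 bp against 571, 823 and 904 bp). H3K27ac over the promoter was called in 3 of 3 WT and 1 of 3 KO libraries, at 4400, 4200 and 3400 bp in WT and 3400 bp in KO replicate 3. H3K4me1 of the window covered 9800, 7200 and 7600 bp in WT and 8600, 5200 and 4400 bp in KO and overlapped.

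Counted over the members, H3K4me3 covered more sequence in all 3 KO than in all 3 WT libraries at 4 of 6 (Peg13, Trappc9, Impact and Inpp5f), beside 24.3% of all windows with a call, and less at 0, beside 7.27%. The Trappc9 count is the Peg13 peak again. H3K27me3 covered more at 3 of the 5 members with a call (Peg13, Trappc9 and Rasgrf1), beside 9.90% of all windows, and less at 0, beside 6.51%. Its reads per kb were higher at 3 of the 4 members called in all 6 libraries (Trappc9, Kcnk9 and Rasgrf1) and lower at 0, beside 19.2% and 11.5%. Without the Peg13 window, H3K27me3 at Trappc9 overlapped in both measures. The Kcnk9 reads overlapped once scaled by the total reads in each list. H3K27ac covered more at 2 of 6 (Peg13 and Impact) and less at 0, beside 17.4% and 7.90%. Its reads per kb were higher at 1 of 3 (Impact) and lower at 0, beside 24.7% and 9.19%. H3K4me1 covered more at 3 of 6 (Peg13, Impact and Inpp5f) and less at 1 (Kcnk9), beside 9.32% and 14.3%. Its reads per kb were higher at 1 of 5 (Impact) and lower at 1 (Kcnk9), beside 15.5% and 30.0%. The members were chosen with these contrasts known, so nothing is read from their shares.

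**Figure D4:**
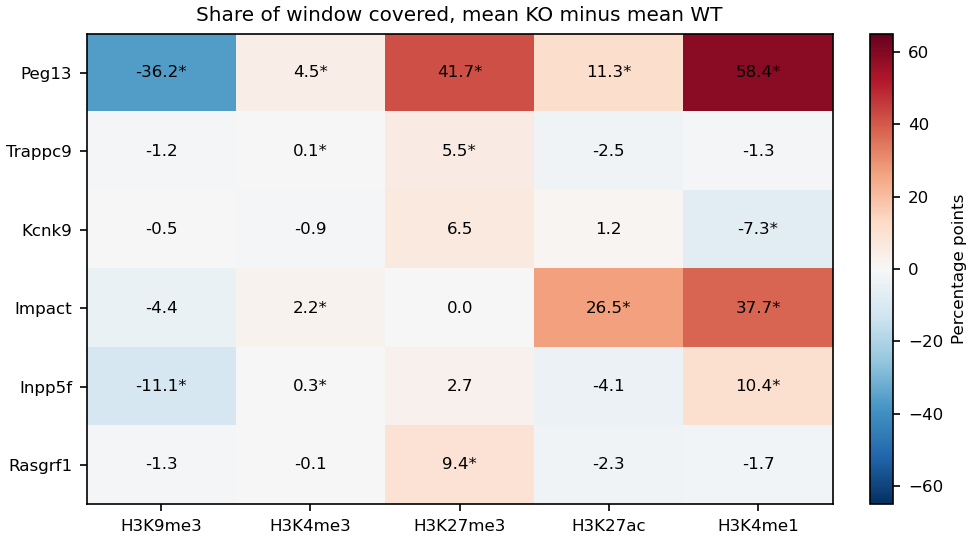
Mean KO minus mean WT share of the gene window covered by calls (percentage points, colour scale and printed values) for the 6 genes and 5 marks, with n = 3 libraries per genotype and a star where all KO values lay on one side of all WT values. Peg13 has the value farthest from 0 for H3K9me3 (-36.2), H3K27me3 (41.7), H3K4me1 (58.4) and H3K4me3 (4.52), and Impact has it for H3K27ac (26.5). Shares depend on window length, which is 14725 bp at Peg13 and 47099 to 481585 bp at the other genes. In covered bp, the H3K9me3 difference was -5324 at Peg13 and -10600 at Inpp5f. The H3K4me1 difference was 8600 bp at Peg13 and 17733 bp at Impact.

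Shares over the genome were also computed for regions that had H3K9me3 calls in WT alone. Of the 1585 merged regions called in 3 of 3 WT and 0 of 3 KO libraries, all 3 KO values exceeded all 3 WT values within the region for H3K4me3 in 1.96%, for H3K27me3 in 1.45%, for H3K27ac in 2.15% and for H3K4me1 in 2.65%. These shares include regions with no call of the other mark, and the median width of the 1585 regions was 2400 bp, beside means of 11133 bp at Inpp5f and 12533 bp upstream of Rasgrf1, so they are no matched comparison. The Inpp5f and Impact regions were among them for H3K4me3, and the Rasgrf1 upstream region for H3K4me1. The Peg13 region, which kept its H3K9me3 call, had higher KO values for all 4 of these marks.

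Other imprinted genes gave different counts. Of 35 further imprinted genes listed for comparison, 28 had an H3K9me3 call in some library. Covered bp were lower in all KO than in all WT libraries at 25 and higher at 0, beside 11.6% and 3.86% of all windows with a call. The median KO minus WT difference was -23.3 percentage points of the window, beside -2.82 for the 6 members and -0.941 for all windows with a call. Covered bp of H3K4me3 were higher in all KO libraries at 17 of 33 of these genes and lower at 1, beside 24.3% and 7.27% of all windows with a call. For H3K27me3 they were higher at 10 of 33 and lower at 3, beside 9.90% and 6.51%. For H3K27ac they were higher at 9 of 32 and lower at 7, beside 17.4% and 7.90%. For H3K4me1 they were higher at 12 of 35 and lower at 7, beside 9.32% and 14.3%. Several of these windows overlap, so the counts are of genes and not of separate loci. Peg3 and Usp29, Nnat and Blcap, Peg10 and Sgce, and Igf2r and Airn had the same H3K4me3 values. Of the 27 with H3K9me3 in every WT library, 13 (48.1%) kept a call in every KO library, beside 79.2% of all such windows. Of the same 27, 9 had no call in the KO. Window length differs between these genes and was not matched. Of 13 genes that neighbour the members, 6 had H3K9me3 in every WT library. Of these, 5 (83.3%) kept it in every KO library, which is near the 79.2% of all such windows.

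By the share of the window covered over all 30 libraries, the gene most like Peg13 outside the member windows was Nap1l5, another imprinted intronic gene, with a mean absolute difference of 12.6 percentage points, followed by Gm9573 (12.7) and Dcpp2 (12.9). At Nap1l5, H3K9me3 covered 11844 bp in each WT library and had no call in KO. There too H3K27me3 (5800, 5400 and 3600 bp) and H3K4me1 (2200, 2200 and 2000 bp) were called in KO alone, and H3K4me3 covered 225, 235 and 364 bp in WT and 422, 636 and 502 bp in KO, whereas H3K27ac had no call. Nearest to Impact were Atg14 (3.43), Arnt (4.40) and Myo9b (4.42), and nearest to Inpp5f were Nsmce2 (3.30), Reps1 (3.32) and Kctd18 (3.36). Nearest to Trappc9 were Pde4d (1.98), 4930422I22Rik (2.18) and Plce1 (2.25), to Kcnk9 were Gabbr2 (2.78), Tll2 (3.18) and Capn8 (3.29), and to Rasgrf1 were Tdrd7 (2.42), AC142100.3 (2.75) and Ccdc149 (2.75). These distances are small for windows that are mostly uncovered, and the likeness is one of coverage only.

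Input reads were listed only inside calls, from 1 input per genotype and experiment. The log2 ratio of KO to WT input reads per kb of called sequence was taken over member windows with calls in both genotypes, unscaled for depth. Its median was -0.0022 over 20 pairs of gene and mark, which ran from -0.35 to 1.19. Over all windows the median was positive with H3K9me3 (0.10) and H3K27me3 (0.18) and negative with H3K4me1 (-0.056) and H3K27ac (-0.063). The pooled median mixes these offsets, so it does not show that input was even at the members. At Peg13 the ratio was 0.32 for H3K9me3 (20.9 input reads per kb in WT and 26.0 in KO). This lay inside the 5th to 95th percentiles of all windows for that mark (-0.46 to 0.63). The KO calls there were shorter than the WT calls, so input over the same bases was not compared. For H3K4me1, calls with a flank of 50000 bp cover all 6 members in both genotypes. With that flank the ratio was -0.04 at Peg13, -0.02 at Trappc9, -0.07 at Kcnk9, -0.02 at Impact, -0.02 at Inpp5f and -0.15 at Rasgrf1. With 5000 bp, the H3K4me1 ratio at Kcnk9 was -0.35, below the 5th percentile of all windows for that mark (-0.29). H3K27ac at Kcnk9 (-0.32, 5th percentile -0.28) and H3K27me3 at Inpp5f (-0.32, 5th percentile -0.14) were also below it. H3K9me3 at Inpp5f, 1.19, lay above the 95th percentile (0.63), where the KO calls were the small ones over Mcmbp. Whether input bears on the lower H3K4me1 at Kcnk9 was not tested.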

How the data were processed

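ChIP-seq region lists of 3 WT and 3 KO mESC clones per mark were used. The authors deposited MACS2 peaks for H3K4me3, giving fold enrichment, a score and −log10 values of the p-value and the q-value, and epic2 regions for the other marks, with the count of ChIP and of input reads, a p-value, an FDR, a log2 fold change and a score. All deposited calls had an FDR or q-value under 0.05 and were made per library. Per the methods, H3K4me3, H3K27me3 and H3K4me1 reads were aligned to GRCm38 with Bowtie2, and multi-mapping and low-quality reads and blacklisted regions were removed. The H3K27ac aligner and details for H3K9me3 are not given in the sources used here. The labels name one antibody for H3K27ac and H3K4me1, and the methods name another for H3K27ac. Removal of multi-mapping reads lowers signal in repeats, and a call threshold turns weak signal into no call.

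Coordinates are 1-based. For each window, covered bp were summed and reads were apportioned by the overlapping part of a call. Calls of 6 libraries that overlapped by 1 bp were merged. Groups were compared by whether all KO values lay on one side of all WT values, without a test, and 3 against 3 samples could not give an exact p below 0.1. The coverage code was tested on simulated calls. Members, gene lists and tests were chosen with earlier results of these data known. Named regions were the 2 largest H3K9me3 regions per window, H3K4me3 regions called in 3 or more libraries and genotype-restricted regions, plus for each member 3 genes with the smallest mean difference in coverage. The Kcnk9 and Trappc9 values within 1000 bp of a start and the upstream Rasgrf1 region were chosen after their values were seen. The 300-bp stretches and motif counts were added after seeing the data. Scaling by trimmed mean of M-values (TMM) used edgeR 4.0.16, and the rest Python 3.11.15.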

Additional observations from a re-analysis of the deposited data

How the results depend on the processing

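No paired analysis was possible because the values come from no test and replicate numbers name independent clones. In the counts below, all 6 members were counted, including those called in one genotype only. H3K9me3 was kept in the KO at 5 members in the main setting and at 4 to 5 under every alternative: Inpp5f dropped out with no flank and with equal numbers of top-ranked calls. Leaving out any one library left that count at 5. Non-overlapping covered bp at H3K9me3 were found at 2 members, at 1 with no flank (Peg13, whose gene body overlapped between genotypes, dropped out) and at 4 with 50000 bp (Trappc9 and Rasgrf1 were added). At H3K27ac they were found at 2 members, and at 1 with 10000 or 50000 bp. At H3K4me1 they were found at 4, and at 2 with 50000 bp. Peg13 H3K27ac reversed with 50000 bp, to a KO minus WT difference of -108 bp and -0.55 reads per kb, where all the added sequence lies in Trappc9. Non-overlapping reads per kb at H3K27ac were found at 3 members and at 1 with 50000 bp, and at H3K4me1 at 3, and at 5 with 50000 bp or an FDR under 0.01. Counted per kb of called sequence, over members called in all 6 libraries, they were found at 0 (H3K27me3), 2 (H3K9me3, Peg13 and Trappc9), 1 (H3K27ac, Inpp5f) and 1 (H3K4me1, Inpp5f). In each of these the KO was lower. Scaled by list totals or TMM they were found at 3 to 4 members for each mark. Leaving out one library gave for covered bp 4 to 5 (H3K4me3), 3 to 5 (H3K27me3), 2 to 4 (H3K9me3), 2 to 4 (H3K27ac) and 4 to 5 (H3K4me1), and for reads per kb 4 to 5 (H3K27me3), 4 to 5 (H3K9me3), 3 to 5 (H3K27ac) and 3 to 4 (H3K4me1). The libraries that moved a count by over 1.5 times were WT replicate 3 for H3K27me3 (5), KO replicate 1 for H3K9me3 (4, Impact and Trappc9 being added), and WT replicate 1 (4 for covered bp, 5 for reads) and KO replicate 3 (4) for H3K27ac. The median input ratio, pooled over marks and not scaled for depth, was -0.0022, and -0.019 with 50000 bp.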
